A study of Mus musculus with 6 samples.

Results

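The insulin-like growth factor (IGF) axis was followed through 6 genes: the binding protein gene Igfbp4, the ligand gene Igf1, the receptor genes Igf1r, Igf2r and Insr, and the adaptor gene Irs2. They were taken by symbol from tables that list 26286 mouse genes, and all 6 had a row. The genes were chosen by their measured counts in GFP+ against GFP- cells, which were already known, so that contrast is given below for these genes as a description, with no test. The study examined regulatory T cells (Treg), the CD4+ T cells that restrain immune responses under the control of Foxp3, from C57BL/6 mice that carry a green fluorescent reporter of Blimp-1, the repressor encoded by Prdm1. Every sample title has the prefix BlimpHet, read here as heterozygous at the Blimp-1 locus, which then holds for both populations. Spleens and lymph nodes were pooled, and sorting split the CD4+ CD25high cells by GFP into GFP- and GFP+ cells. The labels give neither the age of the mice nor how many went into a library. Each population has 3 libraries, 1 made by standard poly(A) selection (GFP- replicate 20, GFP+ replicate 19) and 2 by an amplification protocol devised for single cells and applied here to bulk RNA (replicates 2 and 5 of GFP-, replicates 1 and 4 of GFP+). Libraries are called below by population and number, as in GFP- 20.

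IGF-1 and IGF-2 are peptide hormones related to insulin. They signal through the receptor tyrosine kinase IGF1R and, in part, through the insulin receptor, and both receptors pass the signal to adaptors such as IRS2 and on to PI3K and AKT. The receptor encoded by Igf2r carries no kinase: it takes IGF-2 to lysosomes and also sorts enzymes tagged with mannose 6-phosphate. Binding proteins such as IGFBP-4 hold the ligands in the fluid around cells and generally limit their access to receptors, and proteases such as PAPP-A release them. In mouse T cells the Igfbp4 transcript is known from naive cells, and macrophages are a known source of IGF-1.

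Igfbp4 had the lowest fold change of all genes tested and Igf1 one of the highest, and the promoters of both are shown because their start regions differ in base composition. The letters are the 250 bases before the listed transcription start, from RefSeq (GRCm38.p6, plus strand in both cases), at chr11:99040994-99041243 for Igfbp4 and chr10:87860861-87861110 for Igf1. The capitals mark a TATAAA motif in Igfbp4 and a CTTTGA motif in Igf1.
Igfbp4: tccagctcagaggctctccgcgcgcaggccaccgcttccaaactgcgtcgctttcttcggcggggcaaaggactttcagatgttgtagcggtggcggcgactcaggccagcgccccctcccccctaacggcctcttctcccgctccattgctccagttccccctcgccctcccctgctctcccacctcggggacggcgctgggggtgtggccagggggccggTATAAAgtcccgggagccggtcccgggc
Igf1: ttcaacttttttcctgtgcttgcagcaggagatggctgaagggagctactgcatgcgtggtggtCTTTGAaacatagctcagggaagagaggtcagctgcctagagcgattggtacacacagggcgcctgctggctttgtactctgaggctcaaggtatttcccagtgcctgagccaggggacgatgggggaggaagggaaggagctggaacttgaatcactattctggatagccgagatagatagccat
The Igfbp4 window was rich in G and C (71.3% over 300 bases, which include 50 after the start) and held 27 CpG dinucleotides. The Igf1 window had 52.3% and 6 CpG. The TATAAA of Igfbp4 began 28 bases before the start, and 8.32% of 32851 RefSeq windows hold this motif on the gene's strand. It was looked for after the sequence had been read. CTTTGA, a core of TCF and LEF sites, was searched on both strands and occurs in 16.0% of windows. It was found in the windows of Igf1 and Igf1r, and not in those of Igfbp4, Igf2r and Irs2. TGTTTAC, a core of FOXO sites, occurs in 3.65% of windows on either strand and in none of these 5. The table gave a window for 5 of the 6 genes.

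The sort and the cell type were checked first. Prdm1, the reporter's gene, had 420, 34 and 21 counts in GFP- 20, 2 and 5 and 7451, 542 and 407 in GFP+ 19, 1 and 4 (a log2 fold change of 3.93 with an SE of 0.27). Cd4 and Foxp3 were high in each library, from 312 to 655 and from 1098 to 2622 CPM (counts-per-million, here scaled by TMM). Macrophage markers were much higher in all GFP+ libraries, as given beside Igf1. Of both CD8 T cell markers, Cd8a fell (-0.99 on the log2 scale) and Cd8b1 did not pass (-0.24). Of both natural killer cell markers, Ncr1 fell (-1.92) and Klrb1c did not pass (0.10). None of the 4 tested B cell markers passed (edgeR), although for Cd79b (0.66) the populations did not overlap within either protocol. Summed over 5 genes, B cell markers came to 86.4 to 113 CPM of all counts in GFP- and 109 to 225 in GFP+ libraries.

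Igfbp4 was abundant in GFP- Treg and low in GFP+ Treg. It had 8859 counts in GFP- 20 and 202 in GFP+ 19, both poly(A) libraries, which is 325 and 7.12 CPM of all counts. In the single-cell protocol it had 131 and 88.2 CPM in GFP- 2 and 5 against 0.456 and 1.93 CPM in GFP+ 1 and 4. All 3 GFP+ libraries lay far below all 3 GFP- libraries, with no overlap even between protocols. Of the GFP+ libraries the poly(A) one was the highest, and GFP+ 1 rested on 8 counts. The fitted log2 fold change over all 6 libraries, adjusted for protocol, was -6.24 ± 0.49 (SE, from 3 libraries of each population), the lowest of 10551 genes in the fit. By CPM of all counts, the level was 45.7 times lower in GFP+ cells within the poly(A) pair. In the single-cell protocol the mean was 92.0 times lower on this scale and 104 times lower after TMM scaling.

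None of the 4 T cell markers tested passed the test beside it, and 1 of the 5 Treg markers did. The log2 fold change of Cd4 was 0.02 ± 0.26 (adjusted p = 0.971) and that of Foxp3 0.21 ± 0.31 (adjusted p = 0.710, edgeR quasi-likelihood test, Benjamini-Hochberg adjustment over all genes). Ctla4, an inhibitory receptor of Treg, rose by 2.09 ± 0.32 on the log2 scale (adjusted p = 0.0031, edgeR). Il2ra, which encodes CD25, had -0.64, Ikzf2 had 0.60 and Tnfrsf18 had 0.93. These 3 did not pass, although their populations did not overlap within either protocol. Summed macrophage markers lay between 981 and 1625 CPM in the same GFP+ libraries and between 15.4 and 27.0 CPM in GFP- libraries. RNA of sorted populations was measured in bulk, so fewer cells with the transcript and less transcript per cell cannot be told apart.

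Igf1 showed the opposite direction: it was nearly absent in GFP- libraries and higher, though still modest, in GFP+ libraries. In the latter, 58.4% to 63.1% of detected genes stood above it per length. The poly(A) libraries had 4 counts in GFP- 20 and 396 in GFP+ 19, which is 0.147 and 14.0 CPM. In the single-cell protocol no count was seen in GFP- 2 and 5, while GFP+ 1 and 4 had 37 and 48 counts, or 2.11 and 2.73 CPM. No GFP- library reached the level of any GFP+ library. The gene entered the fit only through its GFP+ libraries. The poly(A) log2 ratio was 6.57, and the exact 95% interval of the fold, 36.8 to 351, covers counting error only. With 3 counts set as a floor for each GFP- library of the single-cell protocol, the lower GFP+ library stood 10.7-fold above the higher floor. This ratio leaves out counting error. The fitted log2 fold change of 6.75 ± 0.54 (SE, from 3 libraries of each population) moved to 8.98 without GFP- 20 and 8.93 without GFP+ 19.

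Macrophage markers stood beside Igf1 in the same libraries. Of 13 macrophage markers with a row, 11 could be tested and all 11 rose (edgeR, adjusted p under 0.05), with a median log2 fold change of 5.95. The other markers, Cd5l and Vcam1, had poly(A) counts alone and were higher there, with log2 ratios of 6.04 and 5.75. Summed over the 13 markers, the level ran from 15.4 to 27.0 CPM in GFP- libraries and from 981 to 1625 CPM in GFP+ libraries, and no marker was at 0 throughout. Per 1000 counts of the 11 tested markers there were 10.4 Igf1 counts in GFP+ 19, 2.15 in GFP+ 1 and 1.96 in GFP+ 4. GFP- 20 had 6.61 per 1000 on 4 Igf1 counts, with an exact 95% Poisson interval of 1.80 to 16.9. Both GFP- libraries of the single-cell protocol had 0, with upper limits of 11.5 and 15.8 per 1000. With so few Igf1 counts in GFP- libraries, these values cannot show whether the ratio differed between populations. The part of macrophages in the Igf1 signal was not tested. Stromal markers came to 0.394 to 4.70 CPM in GFP- and 1.08 to 11.2 CPM in GFP+ libraries, summed over 6 genes. Of these, Col1a1 alone entered the fit and rose (log2 fold change 2.61 ± 0.39, adjusted p = 0.00284, edgeR). The others were too low for the fit. In the poly(A) pair Col1a2 had 27 and 16 counts in GFP- and GFP+ cells, and Pdgfrb had 41 and 24. Pdgfra had 12 and 14 there, Col3a1 3 and 0, and Dcn 0 and 1. In the single-cell protocol Dcn had 0 and 0 counts in GFP- 2 and 5 against 3 and 1 in GFP+ 1 and 4. In the same order Col1a2 had 3 and 2 against 1 and 0, and Pdgfrb 3 and 3 against 2 and 2. Pdgfra and Col3a1 had no counts in that protocol.

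**Figure D1:**
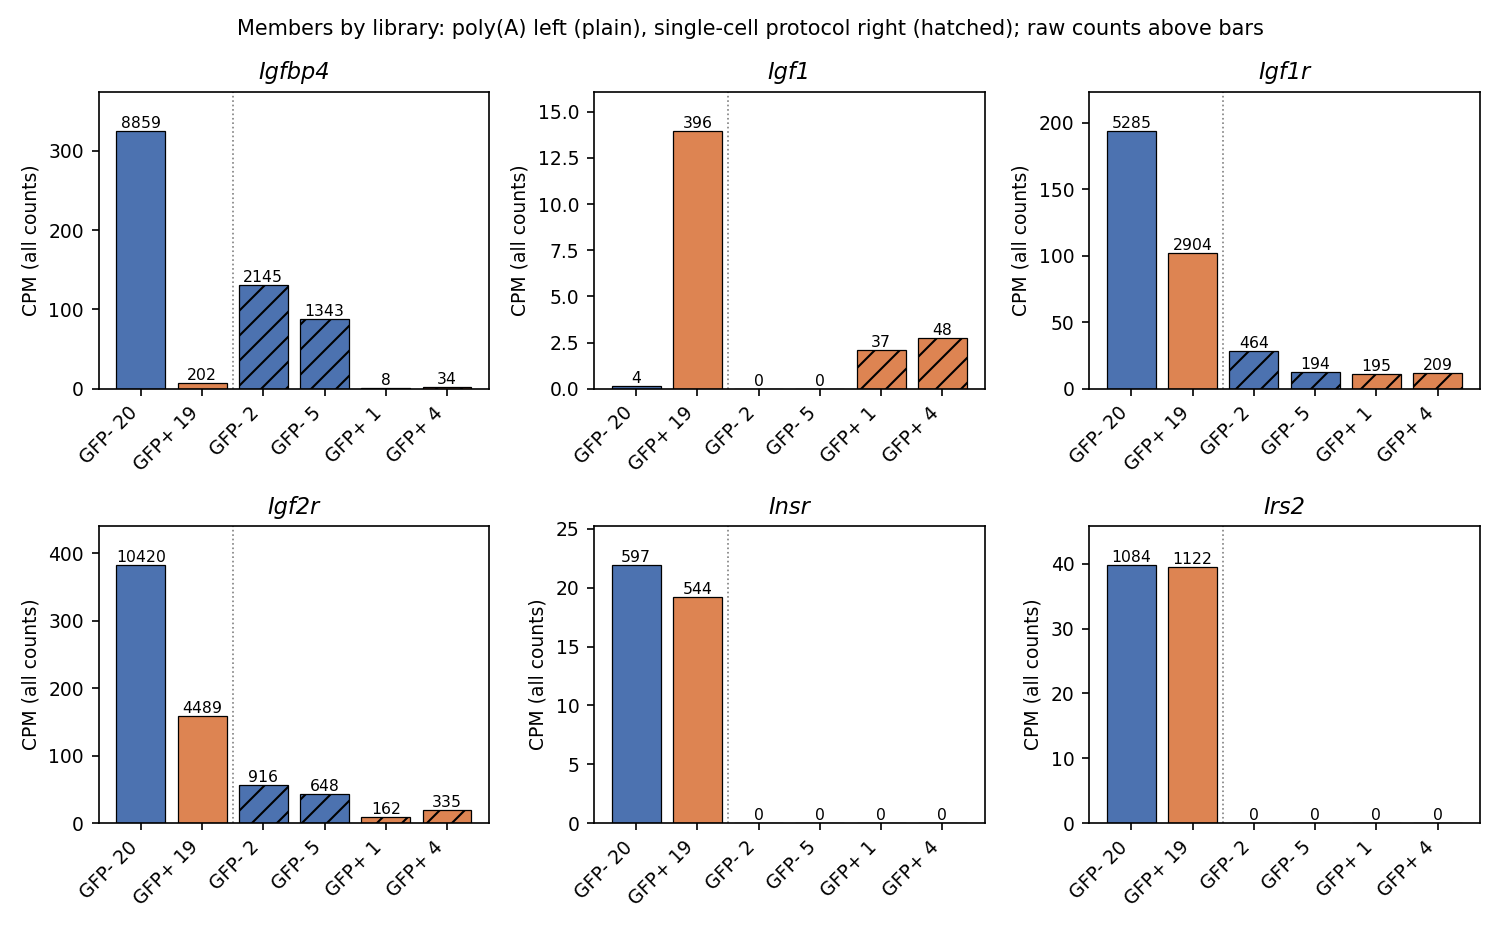
CPM of all counts (vertical axis) of the 6 genes in each library, blue for GFP- and orange for GFP+, with plain bars for poly(A) and hatched bars for single-cell protocol libraries, and the raw count above each bar. Igfbp4 stood at 8859 and 202 counts in the poly(A) libraries of GFP- and GFP+ cells and Igf1 stood at 4 and 396, while Insr and Irs2 differed little there and have 0 in all 4 single-cell protocol columns.

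Both IGF receptors were lower in GFP+ Treg, by much less than Igfbp4. Values here are CPM scaled by TMM, which corrects for differing composition of the libraries. Igf2r had 227 CPM in GFP- 20 against 91.4 in GFP+ 19, and 66.3 and 82.1 CPM in GFP- 2 and 5 against 13.2 and 24.3 in GFP+ 1 and 4. The populations did not overlap within either protocol, and the fitted log2 fold change was -1.75 ± 0.30 (SE, from 3 libraries of each population). Igf1r, the signalling receptor, had 115 CPM in GFP- 20 against 59.1 in GFP+ 19, and 33.6 and 24.6 CPM in GFP- 2 and 5 against 15.9 and 15.1 in GFP+ 1 and 4. Without TMM, GFP- 5 had 12.7 CPM of Igf1r, close to the 11.1 and 11.9 CPM of GFP+ 1 and 4. The fitted log2 fold change of Igf1r was -0.93 ± 0.22 (SE, from 3 libraries of each population).

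Within each protocol, each of the 4 genes in the fit had GFP+ and GFP- libraries that did not overlap, 3 of them lower and 1 higher in GFP+ cells. The same held for 40.6% of all genes tested, 19.3% lower and 21.3% higher.

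Insr and Irs2 were nearly level in the only libraries that measure them. Both lie on chromosome 8, and in the single-cell protocol table the rows of chromosomes 3, 8 and 9 are at 0 for nearly all genes, so the poly(A) pair alone is used, without a replicate check. Insr had 597 counts (21.9 CPM) in GFP- 20 and 544 counts (19.2 CPM) in GFP+ 19. The log2 ratio was -0.19 with an exact interval of -0.36 to -0.02. Irs2 had 1084 and 1122 counts, or 39.8 and 39.6 CPM, and a log2 ratio of -0.01 (interval -0.13 to 0.11). These intervals cover counting error only and say nothing of the spread between animals. Neither gene was past 2-fold, while 19.5% of the 2180 genes without single-cell protocol counts were past it in this pair.

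Per length, the order of the 6 genes differed between the poly(A) libraries. In GFP- 20 Igfbp4 was first at 157 CPM per kilobase of gene length (RPKM), and 2.79% of detected genes stood above it. Igf2r followed at 42.9, Igf1r at 16.2, Irs2 at 9.92, Insr at 2.34 and Igf1 at 0.0188 RPKM. In GFP+ 19 Igf2r was first at 17.7 RPKM, followed by Irs2 at 9.86 and Igf1r at 8.55. Igfbp4 had moved to the fourth place at 3.44 RPKM, with 51.0% of detected genes above it. Insr at 2.05 and Igf1 at 1.79 RPKM came last, and their counting intervals (1.88 to 2.23 and 1.62 to 1.97) overlapped, as those of no other neighbours in either order did. In the single-cell protocol Igfbp4 was also first in both GFP- libraries (63.5 and 42.6 RPKM), and was the lowest of the 4 genes with counts in GFP+ 1 (0.220 RPKM) and close to Igf1, the lowest, in GFP+ 4 (0.934 and 0.909 RPKM). Lengths in that table end at 3000 bases for Igf1, Igf1r and Igf2r, so its RPKM are not set beside those of the poly(A) table.

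**Figure D2:**
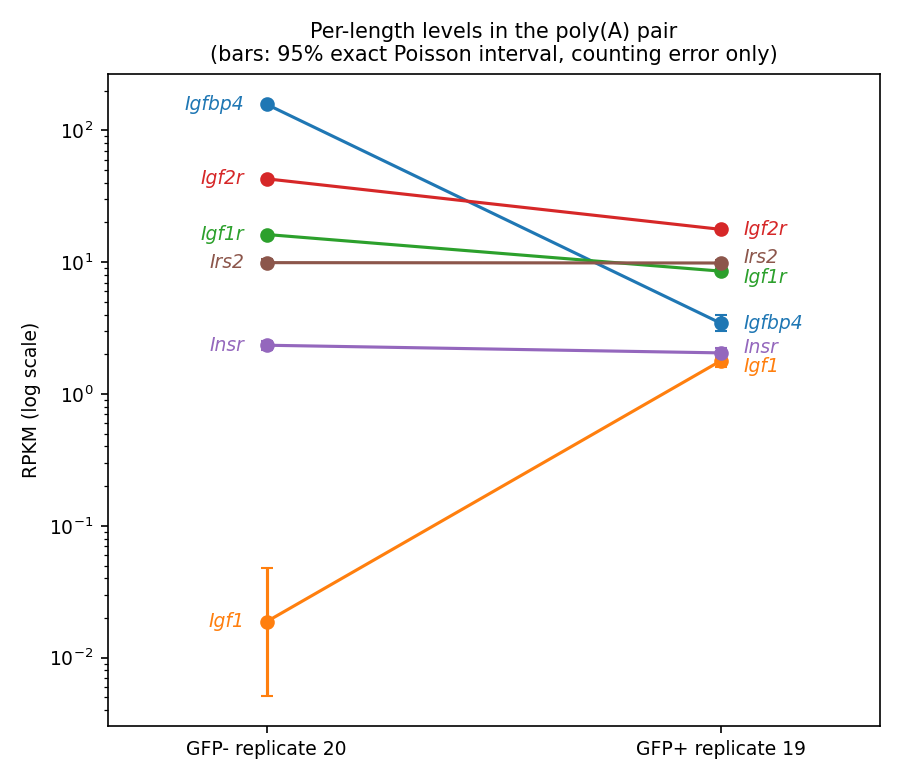
Per-length level (RPKM, log axis) of the 6 genes in the poly(A) library of each population, 1 line per gene, with exact 95% Poisson intervals for counting error. Igfbp4 was first at 157 RPKM in GFP- and below Igf1r at 3.44 in GFP+ cells, Igf1 came from 0.0188 to 1.79, and Irs2 and Insr stayed nearly level.

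Some of these genes differed between the protocols, a comparison that was not used to choose them. The poly(A) libraries are also separate samples, so the protocol cannot be told apart from other differences between these sets of libraries. On the TMM scale Igf1r was higher in poly(A) than in single-cell protocol libraries by a log2 difference of 1.95 ± 0.22 (adjusted p = 0.000110), and Igf2r by 1.96 ± 0.30 (adjusted p = 0.000529). Both p-values come from edgeR. Igf1, which entered the fit only through its GFP+ libraries, was higher by 1.40 ± 0.41 and is given without a test. These 3 genes are longer than 3000 bases in the poly(A) table, from 7817 for Igf1 to 11978 for Igf1r. Igfbp4, with 2069 bases in both tables, had 0.78 ± 0.42 (adjusted p = 0.137). The part of gene length in these differences was not tested. Of all genes tested 65.0% differed between protocols. The population contrast within each protocol chose the genes, so its difference between protocols is a description. This difference of log2 fold changes, poly(A) minus single-cell protocol, was 1.13 ± 0.86 for Igfbp4, 0.67 ± 0.73 for Igf2r, -0.05 ± 0.65 for Igf1r and -2.83 ± 2.40 for Igf1. With 2 residual degrees of freedom, the interaction test passed no gene of the 10551 with edgeR, DESeq2 or limma-voom, and 27, 13 and 27 had an unadjusted p under 0.05. It therefore does not show whether the difference depended on the protocol.

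Beyond the 6 genes, 62 other genes of the pathway were listed in 3 groups, and 33 of them entered the fit. Of these, 4 rose and 3 fell (21.2%, against 13.5% of all genes tested, 9.82% higher and 3.72% lower), and 26 did not pass. Their median log2 fold change was -0.17, beside -0.08 for all genes. The macrophage markers described above were higher in the same GFP+ libraries, and their part in these counts was not tested.

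Most other ligands, binding proteins and their proteases were barely detected. Of the 16 other genes in this group, 11 had under 10 counts in every library, among them Ins1, Igfbp1, Igfbp5, Igfbp6 and Pappa, and Ins2, Igfbp2 and Igfbp3 had none. Igf2, the ligand cleared by the product of Igf2r, fell from 1.81, 0.869 and 0.886 CPM (TMM) in GFP- 20, 2 and 5 to 0.611, 0.245 and 0.145 CPM in GFP+ 19, 1 and 4. Its log2 fold change was -1.80 ± 0.42 (adjusted p = 0.0235, edgeR), on 2 to 83 counts a library. The call was lost without GFP- 20 (adjusted p = 0.202), GFP+ 19 (0.167), GFP+ 1 (0.0758) or GFP+ 4 (0.0879). Ide, which encodes the insulin-degrading enzyme, rose by 1.00 ± 0.26 (adjusted p = 0.0356, edgeR), and lost the call without GFP- 20 (0.147), GFP+ 19 (0.140) or GFP+ 1 (0.136). Stc2, a stanniocalcin that inhibits PAPP-A, had 0.42 ± 0.52 (adjusted p = 0.662). Igfbp7 and Htra1, a secreted protease, were too low for the fit: Igfbp7 had 146, 6 and 5 counts in GFP- and 48, 2 and 5 in GFP+ libraries, and Htra1 had 1, 0 and 0 against 16, 3 and 3.

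Of the receptors, adaptors and inhibitors, 7 others were tested, of which Socs3 fell and Dok1 rose (28.6%, beside 13.5% of all genes tested). Socs3, a feedback inhibitor of cytokine receptors that can also bind the insulin receptor, had 164, 52.9 and 69.5 CPM (TMM) in GFP- 20, 2 and 5. In GFP+ 19, 1 and 4 it had 85.6, 16.3 and 27.1 CPM. Its log2 fold change was -1.30 ± 0.28 (adjusted p = 0.0152, edgeR), with an adjusted p of 0.0614 without GFP+ 1. Dok1, a docking protein that dampens tyrosine kinase signals, rose by 0.82 ± 0.23 (adjusted p = 0.0461). It kept the call without GFP- 5 and in none of the other 5 such fits, where its adjusted p ran from 0.0881 to 0.244. Grb2 (0.62 ± 0.22), Sh2b1 (0.57 ± 0.33), Socs1 (-0.51 ± 0.31) and Ptpn2 (-0.26 ± 0.23) did not pass. Irs1, the adaptor most like Irs2, had 11 and 3 counts in the poly(A) libraries of GFP- and GFP+ cells and none in the others.

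Of 23 genes of PI3K, AKT, mTOR and FOXO that were tested, Sgk1 and Inppl1 rose and Pik3ip1 fell. This share of 13.0% was close to the 13.5% of all genes tested. Sgk1, a kinase activated through PI3K that phosphorylates FOXO factors, had 3.65, 3.98 and 3.67 CPM (TMM) in GFP- 20, 2 and 5 and 16.3, 22.9 and 20.8 CPM in GFP+ 19, 1 and 4. The groups lay well apart, and the log2 fold change was 2.38 ± 0.23 (adjusted p = 0.000350, edgeR). Pik3ip1, a membrane inhibitor of PI3K, went from 61.8, 40.3 and 49.8 CPM to 23.4, 12.7 and 15.3 CPM in the same order, and its log2 fold change was -1.59 ± 0.22 (adjusted p = 0.00187, edgeR). Both genes kept their calls whichever library was left out. Inppl1, the lipid phosphatase SHIP2, rose by 0.91 ± 0.25 (adjusted p = 0.0423). It kept the call without GFP- 5 alone, and the other 5 fits gave adjusted p from 0.0693 to 0.395. Akt1 (0.90 ± 0.26, adjusted p = 0.0569), Rictor (-0.90 ± 0.31), Pik3cd (-1.14 ± 0.39) and Pik3r3 (-0.83 ± 0.37) did not pass. Over 15 alternative settings Akt1 passed in 5, Pik3cd in 4, Rictor in 3 and Pik3r3 in 0, beside 4 for Inppl1.

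In the poly(A) pair, 9 further pathway genes without single-cell protocol counts were measured, of which Insrr, Gab1 and Eif4ebp1 were past 2-fold, all higher in GFP+ cells (33.3%, beside 19.5% of such genes). Eif4ebp1, an inhibitor of translation under mTOR, had 349 and 820 counts in GFP- and GFP+ cells (log2 ratio 1.17). Insrr rested on 17 and 41 counts and Gab1 on 0 and 31. These 3 genes are named because they make up the count.

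**Figure D3:**
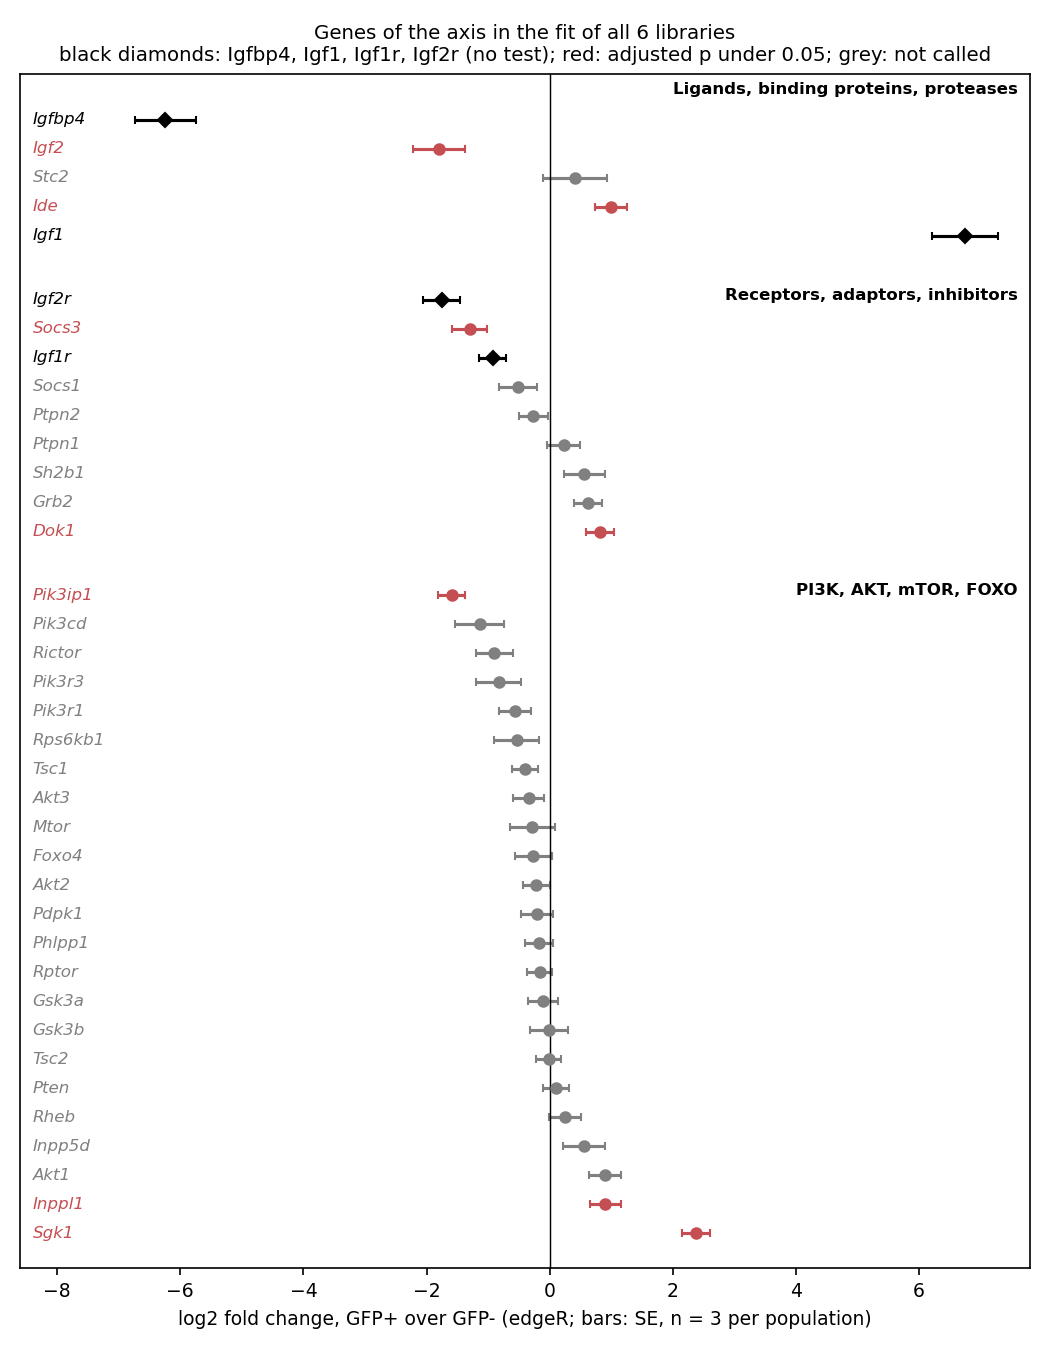
Fitted log2 fold changes of GFP+ over GFP- (horizontal axis, bars are SE, n = 3 per population) for the genes of the 3 groups that entered the fit, with black diamonds for Igfbp4, Igf1, Igf1r and Igf2r, red points for an adjusted p under 0.05 and grey for the rest. Igfbp4 lies at -6.24 and Igf1 at 6.75, and the other genes lie between -1.80 (Igf2) and 2.38 (Sgk1). The genes with diamonds were chosen by this contrast, so their distance from the rest is a description.

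The genes closest to Igfbp4 and Igf1 in pattern were ranked by the root mean square difference of log2 CPM (with a prior count of 2, which draws very low counts together), centred within each protocol, over the 6 libraries and with a mean of at least 5 CPM. For Igfbp4 they were Sorcs2, a sortilin family receptor (0.83), Lad1 (1.16), St8sia1, a ganglioside sialyltransferase (1.17), Gata1 (1.18) and Treml2 (1.23). Their log2 fold changes ran from -5.77 for Sorcs2 to -4.05 for St8sia1, against -6.24 for Igfbp4, the lowest of all genes tested. Igf1 itself had a mean under 5 CPM, so genes as low as Igf1 were not ranked. For Igf1 the closest were Pilrb2 (0.13), Emr1 (0.14), Lrp1 (0.16), Mrc1 (0.26) and Treml4 (0.27). Their log2 fold changes ran from 5.29 for Emr1 to 6.19 for Treml4, below the 6.75 of Igf1. Emr1, which encodes the macrophage antigen F4/80, and Mrc1, the mannose receptor, are also in the macrophage list above. These distances describe 6 libraries and a choice among the genes tested that reached a mean of 5 CPM.

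**Figure D4:**
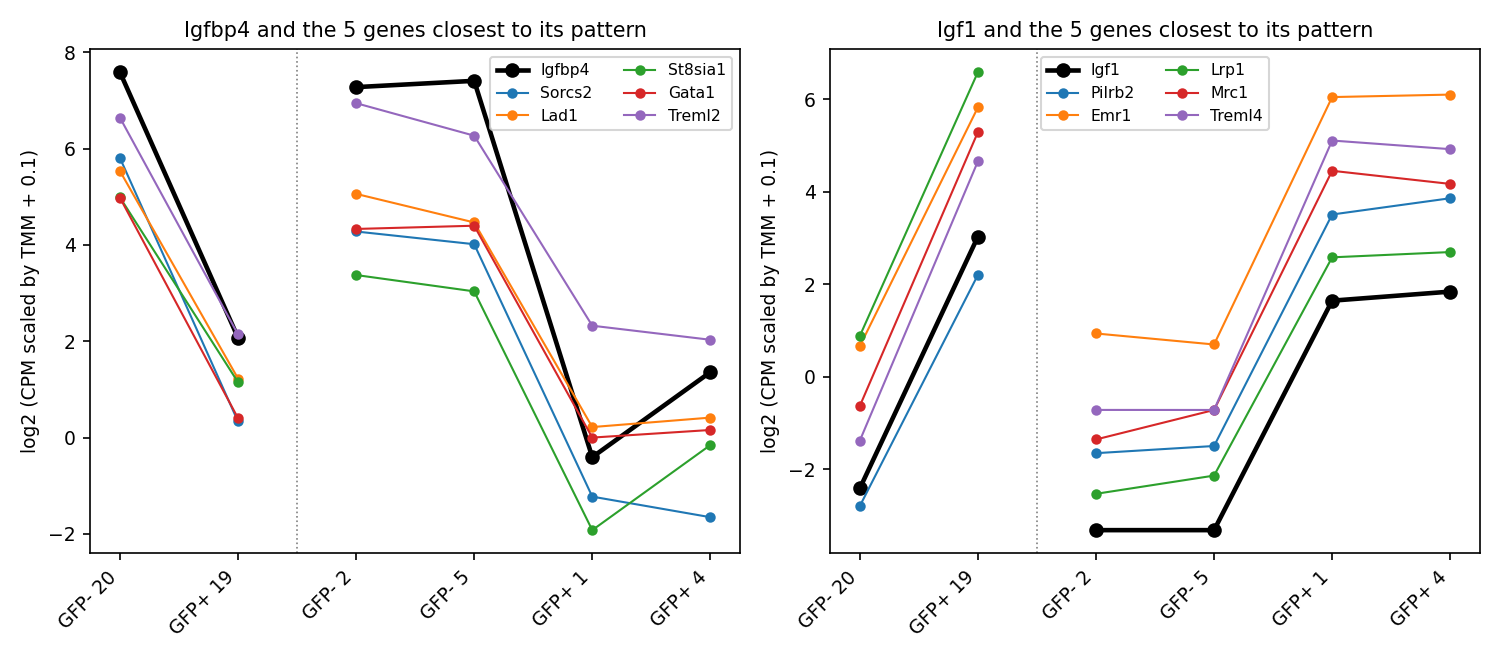
Level of Igfbp4 (left) and Igf1 (right), in black, and of the 5 genes closest to each, as log2 of CPM scaled by TMM plus 0.1, in the 6 libraries, with the poly(A) pair left of the dotted line. Igfbp4 and its 5 neighbours are lower in each GFP+ library than in the GFP- libraries of its protocol, and Igf1 and its 5 neighbours are higher. The neighbours were picked for this pattern.

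Neither of the nearest genes beside Igfbp4 fell. The nearest protein-coding genes on chromosome 11 are Top2a, a DNA topoisomerase of dividing cells, which rose by 2.09 ± 0.50 (adjusted p = 0.0250), and Tns4, with 0.06 ± 0.35 (adjusted p = 0.938, edgeR). Beside Igf1r lies Pgpep1l, which fell by 2.01 ± 0.39 on the log2 scale (adjusted p = 0.00998, edgeR), from 266, 15 and 7 counts in GFP- 20, 2 and 5 to 66, 2 and 5 in GFP+ 19, 1 and 4. Igf2r is overlapped by the noncoding gene Airn, which had 8 to 53 counts in GFP- and 3 to 10 in GFP+ libraries, against 162 to 10420 for Igf2r. Since the use of strand in counting is not stated, reads of overlapping genes cannot be told apart. The part of Airn in the Igf2r counts was not tested.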

How the data were processed

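RNA of sorted Treg was sequenced in 6 libraries, whose totals ran from 15224051 to 28354321 counts. The authors deposited raw counts per Entrez gene with gene lengths in bases, in 1 table per protocol, and log2 RPKM values per library. The submitters' processing notes name Subread, featureCounts, edgeR and the build mm9; neither versions nor the use of strand are stated. The deposited log2 RPKM served only as an alternative. Chromosomes and promoters come from RefSeq (GRCm38.p6), and no mm9 coordinates are given.

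The 3505 rows at 0 in all 4 single-cell protocol columns on chromosomes 3, 8 and 9, where at least 95% of genes with poly(A) counts are at 0, were left out of the fit. edgeR 4.0.16 in R 4.3.3 kept 10551 genes (filterByExpr), scaled libraries by TMM (factors 0.519 to 2.06) and fitted population and protocol with the quasi-likelihood test (3 residual degrees of freedom). Each SE is the absolute log2 fold change divided by the square root of the F statistic of this test. It draws on a variance moderated across all genes, and not on the libraries of that gene alone. Adjusted p are Benjamini-Hochberg values over all genes tested, with a threshold of 0.05. Alternatives used DESeq2 1.42.0 and limma 3.58.1, and the edgeR fit was tested on simulated data. CPM of all counts and RPKM were computed from counts, table lengths and library totals. Poisson and ratio intervals (95%, exact) cover counting error only.

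The genes, gene lists and tests were chosen with earlier results of these data known. The submitters describe the 3 samples of each population as independent, without saying how many mice each holds. As a check for a library deposited under both names, same-population libraries of the single-cell protocol were compared; they differed by more than counting noise (chi-square per degree of freedom 183 and 88.9) and were counted separately, which says nothing of their source. The text names the 6 genes, all genes of the ligand group with at least 10 counts in a library, the called genes and the 4 uncalled genes of smallest p in the other groups, and the 5 genes closest to Igfbp4 and to Igf1. Other genes are named to complete a count or by position.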

Additional observations from a re-analysis of the deposited data

How the results depend on the processing

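Over 15 alternatives each, among them every library left out in turn, the log2 fold changes of Igfbp4 (-6.70 to -5.80), Igf2r (-2.00 to -1.47) and Igf1r (-1.05 to -0.82) kept their direction and moved by less than the spread between replicates. Igf1 kept its direction but moved to 6.21 with limma-voom, 6.50 without the protocol covariate, 8.28 in the single-cell protocol libraries alone and 8.76 with the deposited log2 RPKM, and lay between 6.52 and 8.98 with a library left out. The cause was not tested. The log2 ratio of Insr was -0.39 in the deposited log2 RPKM. The interaction of Igf1 was 0.26 with limma-voom, of opposite sign, and the difference of Igfbp4 between protocols, 0.77, passed with no filter on low counts. Of the other pathway genes, 2 rose with RLE factors and with library totals in place of TMM (the latter chosen after seeing the data), 1 without the protocol covariate and in the single-cell protocol libraries alone, 5 with DESeq2, 6 with no filter on low counts, and 1 to 4 with a library left out, against 4. Those that fell numbered 5 with DESeq2 and with no filter, 0 without the covariate (edgeR, 2 at an unadjusted p under 0.05) and 1 to 5 with a library left out, against 3. Stc2, 0.42 in the fit of all libraries, lay between -0.042 (without GFP- replicate 2) and 1.08 (without GFP+ replicate 19) with a library left out. Over all genes 1429 passed, against 136 without the covariate, 2409 with no filter, 711 in the single-cell protocol libraries alone, and 740, 721, 968 and 2174 without GFP- replicate 20, GFP+ replicate 19, GFP+ replicate 1 and GFP- replicate 5. The populations share no replicate number in the labels, and whether consecutive numbers mark paired sorts is not stated, so no blocked fit was made. Depth limits Igf1 in GFP- libraries and Igfbp4 in GFP+ replicate 1, which rest on 0 to 8 counts.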
